A study of Mus musculus with 10 samples.

Results

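The genes described here are 10 components of the neuromuscular junction, namely the acetylcholine receptor (AChR) subunit genes Chrna1, Chrnb1, Chrnd, Chrne and Chrng, the organizers Musk, Lrp4, Dok7 and Rapsn, and the esterase Ache. They were chosen by symbol, by a rule that uses no measured value but with earlier results of these data known, from the 21160 genes of the count table. The libraries were made from gastrocnemius muscle of male wild-type C57BL/6J mice with diet-induced obesity (DIO), which began the high fat diet D12492i at 9 weeks of age and had it for 9 weeks before the first injection. In both groups the injections were subcutaneous, weekly and continued for 14 weeks. These stages sum to 32 weeks of age, above the age recorded for the samples, so the age at collection is not settled here. The CTRL group (5 libraries) received 0.9% saline solution and the ASO group (5 libraries) received an antisense oligonucleotide against miR-22, named RES-010 in the labels, at 10 mg/kg. The vehicle was saline, so a response to any oligonucleotide and a response to the loss of miR-22 cannot be told apart in this design. Neither the labels nor the table hold a measure of miR-22, so the engagement of its target was not analysed here.

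The neuromuscular junction is the synapse through which a motor neuron commands a muscle fiber. Agrin from the nerve terminal binds Lrp4 on the muscle surface, Lrp4 activates the receptor tyrosine kinase Musk, and Dok7 sustains Musk activity, so that rapsyn gathers AChRs under the terminal at high density. The receptor is a pentamer of alpha, beta, delta and either the fetal gamma or the adult epsilon subunit. Its genes are transcribed mainly by the few nuclei beneath the synapse in innervated muscle and along the whole fiber when the nerve is lost, and acetylcholinesterase in the synaptic cleft ends each signal.

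What the ASO is directed against, and where the same letters lie in these genes, set the sequences shown here. The mature mouse miRNA, as RefSeq gives it, has 22 bases, and the capitals mark its seed (bases 2 to 8).
mmu-miR-22-3p: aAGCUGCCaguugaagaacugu
The heptamer that pairs with the seed, GGCAGCT, was searched for, gene by gene, in the longest 3′UTR that GENCODE M39 annotates on GRCm39. It was found at 2 positions in Dok7 and at 0 in each of the other 9 genes, and 21.7% of 7780 tested genes with a 3′UTR hold at least 1 match. Both Dok7 matches lie on the plus strand of chromosome 5, in the 3′UTR of 2761 bp of ENSMUST00000538217, with the matched bases in capitals.
Dok7, chr5:35236650-35236656: cctcttactctGGCAGCTtctcctcttat
Dok7, chr5:35236875-35236881: cagcttctcagGGCAGCTctgaccacggt
That 3′UTR ends at 35238308, which is also the end of the Dok7 segments of ENSMUST00000101298 and ENSMUST00000114270. These segments are identical, share all 500 bases and drew 0 counts. The Dok7 segment that was counted belongs to another isoform (chr5:35244684-35245183). A letter match is a description and was not tested as a site.

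Which of the 10 genes could be counted was set by the way the table was built. The authors counted read pairs on a segment of at most 500 bp at the 3′UTR end of each transcript. By default featureCounts drops a pair that touches more than 1 feature. The 18030 segments of the table without an unshared base on their own strand held 9190 counts in all libraries together. In all 10 libraries together, Chrnb1 (ENSMUSG00000041189) drew 2853 counts, Lrp4 (ENSMUSG00000027253) 399, Dok7 (ENSMUSG00000044716) 155 and Chrna1 (ENSMUSG00000027107) 72. These 4 genes and Chrng (ENSMUSG00000026253), with 3 counts, are the 5 with 500 bp that lie in a single segment. The segments are chr11:69674862-69675361 for Chrnb1 and chr2:73393559-73394058 for Chrna1 on the minus strand, and chr2:91343625-91344124 for Lrp4 and chr1:87139917-87140416 for Chrng on the plus strand, all in 3′UTRs. No exon of another gene overlaps them.

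The other 5 genes gave no usable level. The 2 segments of Chrnd, which encodes the delta subunit, cover 501 bp and share all but 2 bases, and those of Chrne (epsilon subunit) and Rapsn (rapsyn) are 90 and 211 bp long with 0 unshared bases. All 3 had 0 counts in all 10 libraries. Musk had 1 unshared base and 1 count, and its longest 3′UTR in GENCODE M39 ends 3544 bp beyond its segments. Ache had 5 unshared bases and 11 counts. In the table as a whole, 1863 genes have no base free of other segments on both strands, and they held 15540 counts together. Since pairs on shared bases are dropped by default, the zeros of Chrnd, Chrne and Rapsn are not read as a lack of expression.

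**Figure D1:**
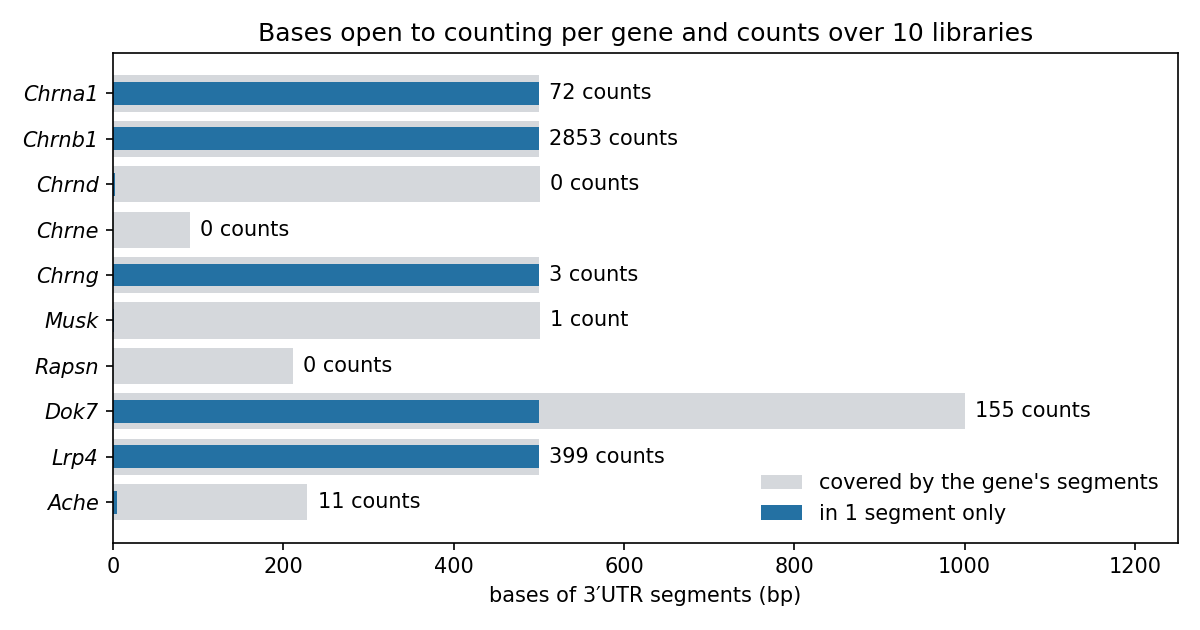
Bases covered by the 3′UTR segments of each of the 10 genes (grey, in bp) and the bases that lie in a single segment (blue), with the counts over all 10 libraries written beside the bar. The 5 genes with 500 bp in blue are Chrna1, Chrnb1, Chrng, Dok7 and Lrp4, and Chrnb1 has 2853 counts.

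Library totals lay between 1606909 and 2116720 counts in CTRL and between 2239186 and 2632560 with the ASO, so every ASO library was deeper than every CTRL library. Levels are given as CPM, that is counts scaled to the TMM-adjusted size of the library, where 3 counts, the floor used here, correspond to 1.25 to 1.77 CPM. Of the 10 genes, 3 passed the filter on low counts and were tested, and of these 1 (Chrnb1) was higher with the ASO, 0 were lower, and 2 (Lrp4 and Dok7) did not pass an adjusted p of 0.05. Of all 7819 genes tested, 29.2% were called, 11.7% as higher and 17.5% as lower. The share of calls that were higher was 40.2% with TMM, 22.5% with total counts and 51.1% with the upper quartile as the scaling.

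Chrnb1, which encodes the beta subunit present in both fetal and adult receptors, rose. The 5 CTRL libraries had 54.7, 113, 63.2, 77.3 and 79.2 CPM, from 116 to 242 counts. The 5 ASO libraries had 167, 166, 259, 163 and 168 CPM, from 346 to 612 counts. Every ASO library was above every CTRL library, and ASO replicate 3 stood apart above the other 4, which lay close together. Among tested genes, 7.98% had the ASO libraries all above and 13.4% all below the CTRL libraries. The means were 77.4 ± 22.2 CPM in CTRL and 185 ± 41.6 CPM with the ASO (SD, n = 5), a 2.38-fold difference (95% confidence interval 1.74 to 3.25). On the log2 scale this is 1.25 with a standard error of 0.21 (Benjamini-Hochberg adjusted p = 0.0011 in edgeR's quasi-likelihood test), and a two-sided exact permutation test gave p = 0.0079, the smallest that 252 labellings allow. Only 0.716% of tested genes had a higher log2 fold change. Without ASO replicate 3 the log2 fold change was 1.13, and without CTRL replicate 2, the highest CTRL library, it was 1.43.

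Lrp4, the agrin receptor that also holds Musk, did not pass the test. It had 19.3, 13.5, 21.7, 23.0 and 11.8 CPM in the CTRL libraries and 15.4, 20.4, 18.2, 27.1 and 17.4 CPM in the ASO libraries. The ranges overlapped over most of their width. The means were 17.9 ± 4.98 and 19.7 ± 4.50 CPM (SD, n = 5), and the log2 fold change was 0.14 ± 0.24 (SE), with a 95% interval from a fold of 0.774 to 1.58 (adjusted p = 0.68, edgeR; exact permutation p = 0.52). The interval holds no change as well as a moderate one in either direction. The sign turned with total counts (−0.031) and with the most distal segments alone (−0.086). Lrp4 has 1 segment, so its counts were the same in both of these fits and the scaling differed.

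Dok7, the adaptor that keeps Musk active, was counted at a low level, on the more distal of its 3′ ends only. Its levels were 3.30, 8.39, 5.43, 4.13 and 5.61 CPM in CTRL and 7.24, 15.7, 9.30, 5.01 and 7.54 CPM with the ASO. ASO replicate 2 was the highest library, and ASO replicate 4 lay inside the CTRL range. The log2 fold change was 0.73 ± 0.35 (SE), the fold's 95% interval ran from 0.974 to 2.82, and neither edgeR (adjusted p = 0.14) nor the exact permutation test (p = 0.087) passed the threshold. The Dok7 segments at the end of the 3′UTR with the seed matches have 0 unshared bases and drew no counts. The level of that 3′ end was therefore not measured, and its zeros are not read as a lack of expression.

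Chrna1, the alpha subunit that carries the acetylcholine binding site, fell short of the filter. It had 2.83, 2.33, 2.47, 2.36 and 2.25 CPM in CTRL, from 4 to 6 counts, and 2.90, 8.07, 2.54, 5.43 and 1.89 CPM with the ASO, from 4 to 19 counts. ASO replicates 2 and 4 were well above all CTRL libraries, ASO replicate 1 was just above the highest of them, and the other 2 ASO libraries lay below it. The exact permutation test gave p = 0.24, and edgeR without the filter gave a log2 fold change of 0.78 with a standard error of 0.47 (adjusted p = 0.30).

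The fetal gamma subunit gene Chrng, with a whole segment open to counting, had 0 counts in all 5 CTRL libraries and 1 and 2 counts in ASO replicates 2 and 4, so it stood at or under the floor in every library. Ache had 4 and 3 counts in CTRL replicates 1 and 2, 0 in the other CTRL libraries, and 1 count in all ASO libraries but ASO replicate 4. No fold is given for either gene, nor for Musk, whose single count was in CTRL replicate 1. The fetal to adult switch of the receptor could not be read from the ratio of Chrng to Chrne, because Chrne held no count.

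**Figure D2:**
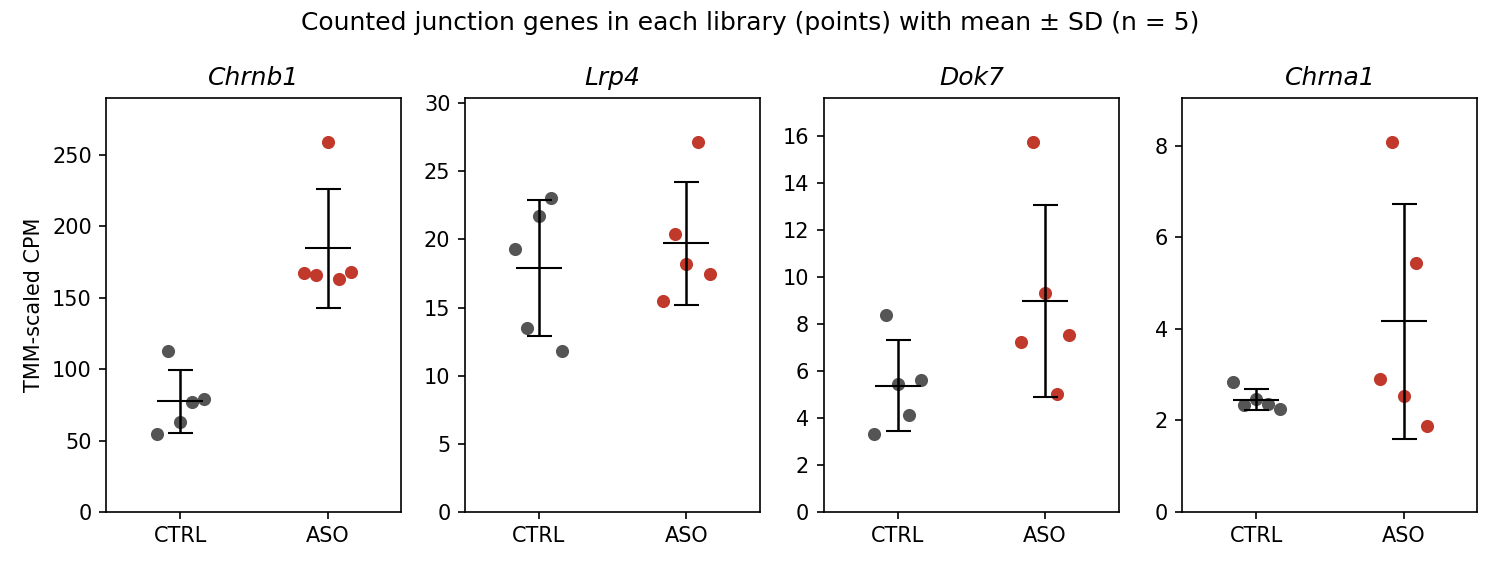
Level (TMM-scaled CPM, an axis per gene) of Chrnb1, Lrp4, Dok7 and Chrna1 in the 5 CTRL and 5 ASO libraries, each point a library, with horizontal lines at the mean and bars of 1 SD. For Chrnb1 the ASO libraries sit between 163 and 259 CPM, above the highest CTRL library at 113, and for the other 3 genes the groups overlap.

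Per kb of unshared segment, the levels in CTRL ran from Chrnb1 (155 CPM per kb) through Lrp4 (35.8), Dok7 (10.7) and Chrna1 (4.89) to Chrng (0). With the ASO the order was the same, at 369, 39.4, 17.9, 8.33 and 0.504 CPM per kb. On these segments of equal length no gene's CTRL libraries overlapped those of its neighbour in the order, although Chrna1 (up to 2.83 CPM) and Dok7 (from 3.30 CPM) lay close. With the ASO, Dok7 and Lrp4 (up to 15.7 and from 15.4 CPM) and Dok7 and Chrna1 (from 5.01 and up to 8.07 CPM) overlapped. These are levels on single 3′ ends of different transcripts, and they do not give the proportions of the subunits.

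A ratio within a library does not depend on how libraries are scaled. The ratios given here were chosen after the data were seen, since those planned had Chrne as the divisor. The log2 ratio of Chrnb1 to Lrp4 counts (with 0.5 added to each count) was 1.49, 3.04, 1.53, 1.74 and 2.72 in CTRL and 3.41, 3.01, 3.82, 2.58 and 3.25 with the ASO. CTRL replicates 2 and 5 lay among the ASO libraries. The means differed by 1.11 (2.10 ± 0.724 against 3.21 ± 0.460, SD, n = 5; exact permutation p = 0.040). Leaving out CTRL replicate 1, 3 or 4 ended this call (differences of 0.96, 0.97 and 1.02), as did leaving out ASO replicate 1, 3 or 5 (1.06, 0.96 and 1.10), with p up to 0.071. The log2 ratio of Chrnb1 to Ckm, the muscle creatine kinase, was −7.96 ± 0.320 in CTRL and −7.62 ± 0.452 with the ASO. The difference of 0.34 did not pass (exact permutation p = 0.22). Summed over its segments Ckm had a log2 fold change of 0.93, and on its most distal segment alone −0.01. A ratio to that segment alone was not computed.

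**Figure D3:**
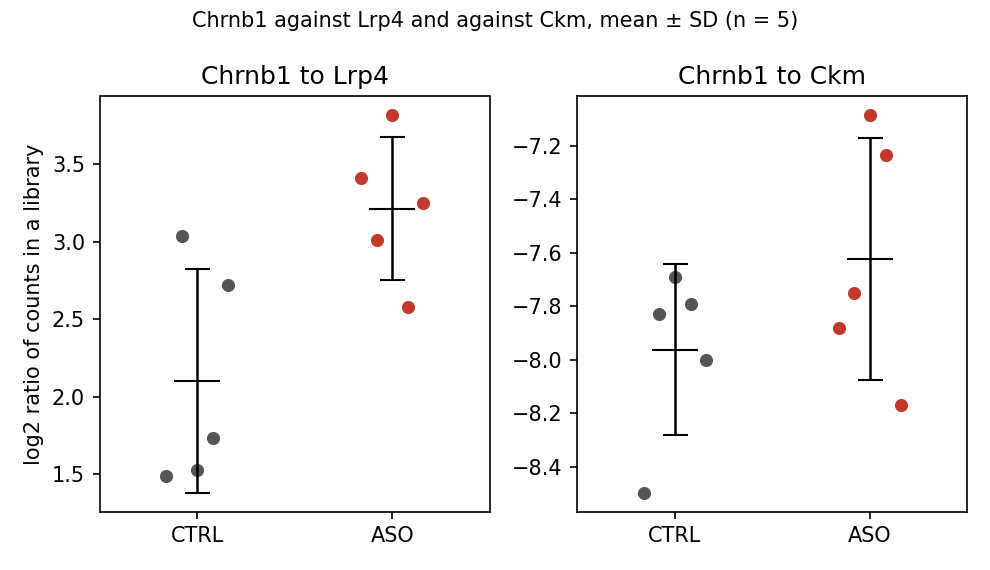
The log2 ratio of Chrnb1 counts to those of Lrp4 (left) and of Ckm (right) in each library of the CTRL and ASO groups, with the mean and bars of 1 SD (n = 5). The groups overlap in both panels, and the difference of means is 1.11 on the left and 0.34 on the right.

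Muscle fiber markers, summed, moved in the same direction as Chrnb1. The sum over 15 of them was 49650 to 98179 CPM in CTRL (median 79895) and 102006 to 164663 CPM with the ASO (median 122244), without overlap (exact permutation p = 0.0079). Of these markers, 6 were tested and 3 rose, beside 11.7% of all tested genes. The 3 were Ckm, Actn3 and Tnnc2, with log2 fold changes of 0.93, 1.79 and 0.79, while Tnnt3, Mb, Pygm and Mylpf were at 0 counts. The call of Tnnc2 did not hold without CTRL replicate 4, CTRL replicate 5, ASO replicate 1 or ASO replicate 5, with adjusted p up to 0.072, and on the most distal segment alone Ckm was at −0.01. In bulk muscle, fewer cells of a type and less RNA per cell cannot be told apart, and the part of these markers in the result on Chrnb1 was not tested.

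Markers of the Schwann cells and axons that meet the fiber at the synapse, and of other cells of the muscle, were summed in the same way. The summed level of 12 Schwann cell markers was 86.3 to 171 CPM in CTRL and 43.9 to 585 CPM with the ASO (exact permutation p = 0.93), with Egr2 at 0 and the highest value in ASO replicate 4. The 10 motor axon markers summed to 1.41 to 14.8 CPM in CTRL and 0.472 to 3.38 CPM with the ASO, with Chat and Prph at 0. The sum of 8 satellite cell markers rose from 197 to 311 CPM in CTRL to 304 to 525 CPM with the ASO (exact permutation p = 0.016), with Calcr at 0. Of these markers 6 were tested, with a median log2 fold change of 0.29. Cdh15 and Sdc4 were higher (1.23 and 0.94), beside 11.7% of all tested genes. Pax7, Vcam1, Itga7 and Chodl did not pass (0.17, 0.29, 0.28 and −0.61). On the most distal segments alone Sdc4 did not pass (adjusted p = 0.068, edgeR). The adipocyte sum was highest in CTRL replicate 3 (13740 CPM), and the sums for adipocytes, fibroadipogenic progenitors, macrophages, endothelial and erythroid cells overlapped between the groups. Of the tested markers, 1 of 4 fibroadipogenic (Lum) and 1 of 5 macrophage markers (Mrc1) were lower, beside 17.5% of all tested genes. For adipocyte, endothelial and erythroid cells 0 were called. Lum and Mrc1 had log2 fold changes of −1.72 and −1.51 (adjusted p of 0.0013 and 0.036, edgeR). The median was −0.71 for the fibroadipogenic list and −1.14 for the macrophage list. Col1a1 (0.36) and Cd68 (0.26) of these lists lay above 0 and did not pass. The call of Mrc1 was lost without any of 7 libraries, with −0.92 (adjusted p = 0.10) without CTRL replicate 3. The part of these markers in the results was not tested. Without CTRL replicate 3 and ASO replicate 4 together, a fit added after seeing the data, Chrnb1 had a log2 fold change of 1.25 (adjusted p = 0.0030, edgeR).

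Around the 10 genes, signaling and scaffold genes of the junction were called in both directions. Of 38 listed genes 26 were tested, with 5 higher and 7 lower, beside 11.7% and 17.5% of all tested genes. Their median log2 fold change was −0.02, where that of all tested genes was −0.03. Agrn, which encodes agrin in nerve and in muscle, had 10.6 ± 2.95 CPM in CTRL and 13.6 ± 3.94 CPM with the ASO, a log2 fold change of 0.37 that did not pass (adjusted p = 0.33, edgeR). Ctnnb1, the beta-catenin gene, which acts in muscle in the placing of the synapse, fell from 664 ± 157 to 191 ± 55.9 CPM. It was at 528, 512, 669, 712 and 898 CPM in CTRL and 231, 240, 101, 204 and 177 CPM with the ASO, so the groups did not overlap. Yes1, a Src family kinase, Crk, an adaptor bound by Dok7, and Dnaja3, a co-chaperone that binds Musk, were also lower (log2 fold changes of −1.58, −0.74 and −0.92), as were Apc, Syne1 and Vezt (−0.64, −0.50 and −0.98). The 5 higher genes were Pdzrn3, a ubiquitin ligase for Musk (0.77), Abl2, a kinase of the agrin pathway (0.70), Dvl3 and Dvl1, scaffolds that bind Musk (0.59 and 0.55), and Rac1, a GTPase that acts on actin during receptor clustering (0.51). The calls of Apc, Syne1 and Vezt each depended on single libraries. Without CTRL replicate 4 or ASO replicate 5 none of the 3 passed, and others were lost without CTRL replicate 5 (Apc, Vezt), ASO replicate 2 (Apc), ASO replicate 3 (Syne1) or ASO replicate 4 (Syne1, Vezt), with adjusted p up to 0.082. Dvl3 was lost without CTRL replicate 5 (adjusted p = 0.050). With total counts Rac1 (adjusted p = 0.0525) and Dvl3 (0.083) did not pass. On the most distal segments alone Crk (0.23, adjusted p = 0.57), Syne1 (−0.44, adjusted p = 0.060) and Dvl3 (0.38, adjusted p = 0.11) did not pass, and Ctnnb1, Apc, Vezt and Rac1 were not tested.

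Genes of the synaptic basal lamina and of the dystrobrevin complex, which tie the synapse to the matrix and to the cytoskeleton, were also called in both directions. Of 23 listed 14 were tested, 2 were higher and 4 lower, beside 11.7% and 17.5% of all tested genes, with a median of −0.26. Lamc1, the gamma chain of most laminins, had 28.3, 24.2, 64.7, 47.2 and 65.1 CPM in CTRL and 14.5, 8.49, 9.73, 10.9 and 10.4 CPM with the ASO, a log2 fold change of −2.08. Utrn, the dystrophin relative concentrated under the synapse, fell by 2.05 on the log2 scale, although the lowest CTRL library (8.86 CPM) was below the highest ASO library (10.4 CPM). Lama5, a laminin alpha chain of the synaptic cleft, rose by 1.36 on the log2 scale, from 7.41 to 14.2 CPM in CTRL to 18.7 to 41.0 CPM with the ASO. The calls of Nid1 (−1.30), Sntb2 (−1.13) and Lamb2 (0.60) each depended on single libraries. Nid1 was lost without ASO replicate 3 or 5, and Lamb2 without CTRL replicate 3 or 5. Sntb2 was lost without any of 7 libraries, the exceptions being CTRL replicates 1 and 2 and ASO replicate 3. The adjusted p in these fits was up to 0.081. With total counts Lamb2 did not pass (adjusted p = 0.086, edgeR). On the most distal segments alone neither Lamb2 (adjusted p = 0.14) nor Sntb2 (0.084) passed. Colq, the collagen tail that anchors acetylcholinesterase, was at 7.64 ± 5.69 and 5.45 ± 2.95 CPM (log2 fold change −0.51, adjusted p = 0.51).

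Among 20 other acetylcholine receptor and esterase genes, 18 were in the table and 2 were tested, with 0 called, beside 29.2% of all tested genes. The tested genes were Bche, butyrylcholinesterase, with a log2 fold change of −0.79 (adjusted p = 0.15), and Chrna2, a neuronal subunit gene, with −0.22 (adjusted p = 0.74). Of the 5 genes of protein glycosylation whose mutation causes congenital myasthenia, all were tested and 1 was lower, beside 17.5% of all tested genes. The lower gene was Dpagt1, an enzyme of the first step of N-glycan assembly, with 16.1 ± 6.22 CPM in CTRL and 3.85 ± 1.66 CPM with the ASO (log2 fold change −2.05, adjusted p = 0.0015). On the most distal segments alone Dpagt1 was not tested. Alg14, Gmppb, Alg2 and Gfpt1 were at −0.88, −0.64, −0.22 and 0.34.

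Among factors known to control the AChR subunit genes, 31 were listed and 22 tested, of which 2 were higher, 7 lower and 13 not past the threshold. Over all tested genes 11.7% were higher and 17.5% lower, and the median was −0.27 for the list and −0.03 for all. Myog, the myogenic factor that drives AChR genes in developing and denervated fibers, rose from 11.3, 14.5, 13.8, 16.5 and 17.4 CPM in CTRL to 39.6, 41.2, 105, 85.6 and 55.6 CPM with the ASO. Gabpa, the ETS factor that acts through the N-box in synaptic nuclei, fell from 58.9, 48.5, 59.8, 71.4 and 64.6 CPM to 23.7, 36.1, 32.1, 29.6 and 27.8 CPM. Neither gene had overlapping groups. The log2 fold changes were 2.16 ± 0.29 and −1.02 ± 0.15 (SE), with adjusted p of 3.7e-04 and 7.2e-04, and on the most distal segments alone Gabpa was at −0.77 (adjusted p = 0.054).

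The other higher factor was Hdac5, a class II histone deacetylase (0.79). Mef2c, a partner of the myogenic factors, had the largest fall of the list, from 373 ± 195 to 45.4 ± 3.82 CPM, a log2 fold change of −3.04. Tcf12, an E protein that dimerizes with them, was at −1.46, and the repressors Dach2 and Zeb1 were at −1.94 and −1.64, where Zeb1 was at −0.03 on its most distal segment. Camk2d and Camk2b, subunits of a calcium-dependent kinase, were at −0.95 and −0.76. On the most distal segments alone Hdac5, Mef2c, Tcf12, Dach2 and Camk2d were not tested. Myod1, the other myogenic factor that binds AChR promoters, had 60.3 ± 22.3 CPM in CTRL and 111 ± 49.7 CPM with the ASO and just missed the threshold (log2 fold change 0.88, adjusted p = 0.052).

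Genes of the response of muscle to loss of the nerve were listed as a denervation response, without a direction set for each gene. Their median log2 fold change was 0.58 over 14 tested of 20 listed, where that of all tested genes was −0.03. Of the 14, 2 were higher and 2 lower, beside 11.7% and 17.5% of all tested genes. The higher genes were Myog and Cdh15, a cadherin of myogenic cells, at 38.3 ± 8.29 CPM in CTRL and 89.6 ± 7.28 CPM with the ASO. The lower ones were Dach2 and Trim63, the ubiquitin ligase MuRF1 (−0.77), whose call did not hold when CTRL replicate 4 or ASO replicate 1, 3 or 5 was left out, with adjusted p up to 0.057. Members chosen after their values were seen are Runx1 and Ncam1, which did not pass at log2 fold changes of 0.87 and 0.69 (adjusted p of 0.071 and 0.21), with the highest library ASO replicate 4 for both, at 17.9 and 26.7 CPM. Chrna1 and Chrng, which also belong to this response, are described among the receptor genes.

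**Figure D4:**
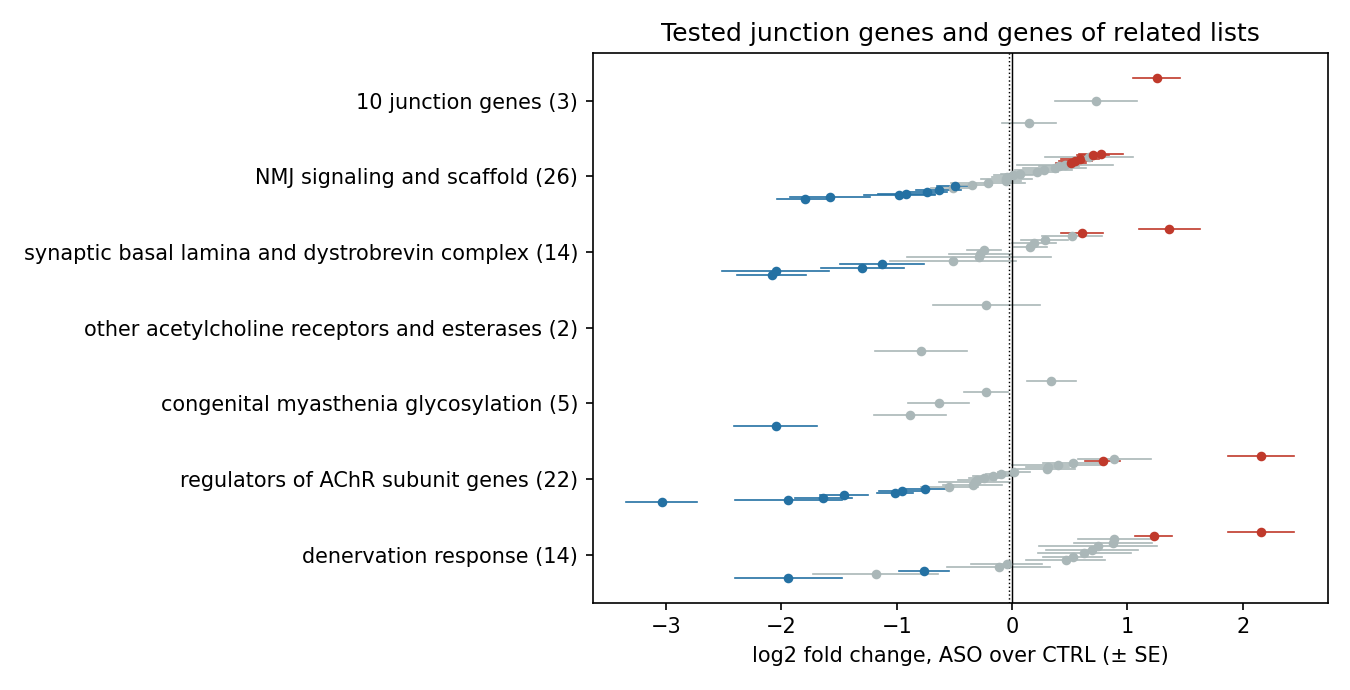
Log2 fold change of ASO over CTRL (points, with bars of 1 SE) for each tested gene among the 10 junction genes and in 6 related gene lists, with the number tested in brackets. Red and blue mark genes past an adjusted p of 0.05 as higher or lower, grey those not past it, the solid line 0 and the dotted line the median of all tested genes (−0.03).

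Since Myog and Gabpa changed, the promoters of the 10 genes were searched for the letters that these families of factors bind. RefSeq (GRCm38.p6) gave windows from 250 bases before to 50 after the start for 7 of the 10 genes (not for Chrnd, Rapsn and Lrp4), and matches on either strand were counted. The E-box CANNTG was in 72.3% of 32851 promoters, its form CAGCTG, which is also a CANNTG match, in 16.3%, and the N-box core CCGGAA in 14.9%. Chrna1 and Chrng each had 3 E-boxes, of which 2 were CAGCTG, Musk had 3 with 1 CAGCTG, and Chrnb1 had 3 with 0 CAGCTG. Chrne was the only one of the 7 with the N-box core. Shown are the E-boxes of the gene that rose, and the CAGCTG and N-box matches of the other genes, with the match in capitals and its position relative to the start.
Chrnb1, −119: agtgttatctgaCATTTGtgagtggagggc
Chrnb1, −96: ggagggcgactgCAGTTGctccgggcggga
Chrnb1, −29: gtcccccgacaaCAGGTGcacattcctggg
Chrna1, −92: ctgtgggcagctCAGCTGtcatgcgggcac
Chrna1, −44: tagctgtggagtCAGCTGgcttccaaggcc
Chrng, −155: atatcctgggaaCAGCTGacaatgcagtgg
Chrng, −132: gcagtggtcagaCAGCTGgtggggccagct
Musk, −68: gtgagttctcccCAGCTGgccacgtccatc
Chrne, −138: cacaggatggggCAGCTGcctcccccaccc
Chrne, −76: cccaaacctagcCCGGAActaacaccctcc
Binding was not measured.

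The counted junction genes were also compared with each other within the groups. The Pearson correlation of log2 CPM less the group mean, over 10 libraries, was 0.51 for Chrnb1 and Dok7, −0.45 for Chrnb1 and Lrp4, −0.30 for Chrnb1 and Chrna1, and between −0.44 and 0.42 for the other 3 pairings, as a description of points that share library and depth. The genes most like Chrna1 by this measure among 7741 were Rab1a (0.956), Rasgrf2 (0.905), Cd82 (0.896), Itm2a (0.880) and Fbxo32 (0.877). For Lrp4 they were Arl13b (0.953), Tppp (0.928), Fas (0.911) and Ifit1 (0.905), and for Chrnb1, added after seeing the data, Hectd4 and Leo1 (0.907 each), Phf10 (0.904), Ufl1 (0.890) and Gclm (0.889).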

How the data were processed

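The members and gene lists were chosen with earlier results of these data known. For stranded mRNA libraries, the authors used fastp for trimming, STAR for alignment (GRCm39) and featureCounts for pairs on Gencode M25, kept 3′UTR ends of up to 500 bp, and deposited unnormalized counts. The strand setting is not given in the sources used here. Of 52423 segments, 52361 matched GENCODE M39 transcripts, the other 62 were kept as genes of their own, and counts were summed per gene. Columns of 10 libraries were used and 4 other per-sample columns were not. The test across genes was that of edgeR 4.0.16, run in R 4.3.3 (TMM, filter by group, quasi-likelihood test, Benjamini-Hochberg adjustment, threshold 0.05). The 95% intervals come from that fit. Single values and ratios were compared by two-sided exact permutation tests in scipy 1.17.1. Log2 CPM used a prior count of 1. Nothing states that libraries with the same number share a mouse or batch, and p-values measure the spread between libraries. Floors cover counting error only. Alternatives were DESeq2 1.42.0, limma-voom (limma 3.58.1), RLE, total-count and upper-quartile scaling, no filter, at least 10 counts in every library, a replicate block, only the most distal segment, thinning to 1606909 counts, and leaving out each library. The genes named are the 10 members, up to 8 called genes per list by smallest adjusted p, Myog, Gabpa and Agrn, and the 5 most correlated genes for Chrna1 and Lrp4, of which 1 is not reported here; others (Apc, Syne1, Vezt, Dvl3, Camk2b, Myod1, Bche, Chrna2, Colq, Alg14, Gmppb, Alg2, Gfpt1, Runx1, Ncam1) were chosen after their values were seen. The edgeR, limma-voom and DESeq2 fits were tested on simulated data, and the exact permutation test on separated and on equal values.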

Additional observations from a re-analysis of the deposited data

Results flagged for a closer look

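In 64 groups of 5 values, made of 32 genes or ratios in CTRL and in ASO, a single library stood apart from the rest 4 times by Dixon's criterion (0.71), where chance gives about 1 in 20 groups. Chrnb1 in ASO replicate 3 was the highest of its group at 259 CPM, with the next library at 168 CPM. The lowest CTRL value of Dvl1 was in replicate 3, at 275 CPM against 362 CPM in the next library. For Sntb2, ASO replicate 3 held 16.1 CPM and the next library 7.24 CPM. Agrn was at 20.5 CPM in ASO replicate 4 and at 13.2 CPM in the next.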

How the results depend on the processing

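Chrnb1 stayed higher and past the threshold in all 11 alternatives, with log2 fold changes of 1.02 (most distal segment) to 1.34 (upper quartile), and without each library (1.13 to 1.43, adjusted p 5.3e-04 to 0.0047). Total counts moved the median of all tested genes to −0.21 and Chrnb1 to 1.07. Lrp4 turned to −0.031 with total counts and −0.086 with the most distal segment, and without each library was at 0.02 to 0.25. Chrnb1 and Lrp4 have 1 segment each, so the most distal segment left their counts unchanged and altered the scaling and the genes tested. Dok7 did not pass in any fit (0.51 to 0.91, and 0.44 to 0.96 without each library). With total counts 528 genes were higher, and the signaling, basal lamina and glycosylation lists had 3 higher, 1 higher and 3 lower. With the most distal segment 388 genes were higher and 604 lower, with 2 lower in the signaling list, 1 higher in the basal lamina list, 0 lower in the glycosylation list, 1 higher and 1 lower among regulators, and 1 lower in the denervation list, where a smaller table was tested. Dpagt1 and several of the called signaling and regulator genes named above were not tested in that fit. The upper quartile gave 4 higher denervation genes and the minimum of 10 counts 1 lower. Without CTRL replicate 3 and ASO replicate 4, 1 basal lamina gene was higher. Otherwise the cause of these moves was not tested. Without each library in turn, 691 to 1021 genes were higher and 1126 to 1370 lower, and 1 of the 10 junction genes was higher and 0 lower throughout. The lists then had 4 to 6 higher and 4 to 8 lower (signaling), 1 to 2 and 2 to 4 (basal lamina), 0 and 1 to 2 (glycosylation), 2 to 3 and 8 to 10 (regulators) and 2 to 3 and 1 to 2 (denervation). Signaling fell to 4 lower without CTRL replicate 4 or ASO replicate 5, and basal lamina to 2 lower without ASO replicate 5. The ratio of Chrnb1 to Lrp4 was at 0.96 to 1.35 (exact permutation p 0.024 to 0.071), and that to Ckm at 0.20 to 0.47. Same-numbered libraries correlated at −0.42 to 0.15, with 1 of 5 over 0.1. These values show no pairing by number, but they cannot exclude a shared batch. The replicate block gave Chrnb1 1.27 (adjusted p 0.0054, edgeR), gave a ratio to Lrp4 of 1.11 (exact sign-flip p = 0.125, in a test whose smallest p, 0.0625, cannot pass), and gave 1 higher basal lamina gene. The planned ratios to Chrne were not run, since Chrne has no counts. Chrna1 and Chrng were too low in counts for the filter, and Ache and Musk had almost no unshared base.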

Other observations

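Among the regulators of AChR genes that did not pass the filter on low counts, 3 had lower levels with the ASO and are named after their values were seen. Etv5, an ETS factor of the junction, was at 4.24, 7.93, 7.90, 8.26 and 9.54 CPM in CTRL and 1.93, 0.849, 0.423, 2.50 and 0.943 CPM with the ASO, without overlap (log2 fold change −2.43, adjusted p = 0.0021, edgeR without the filter). Erf, an ETS repressor, was at −2.11 (adjusted p = 0.015) and Hdac9, a histone deacetylase, at −2.43 (adjusted p = 0.011) in the same fit. That fit called 787 genes as higher and 1383 as lower in all, and 3 and 10 of the 31 listed regulators. Its share over all genes is not given here. In the fit with the filter, 13.4% of tested genes had the ASO libraries all below the CTRL libraries. The filter kept genes of this kind when a library was left out, when 8 to 10 regulators were lower.

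ASO replicate 4 held the highest level of 2 further genes. Myh3, the embryonic myosin, was at 31.3 CPM there, and Erbb3, the neuregulin receptor, was also highest in that library. Their group means with the ASO were 7.50 ± 13.4 and 14.1 ± 6.73 CPM (SD, n = 5), against 1.18 ± 1.78 and 8.84 ± 4.16 CPM in CTRL. Erbb3 did not pass the test (adjusted p = 0.21, edgeR), and Myh3 did not pass the filter on low counts.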
